A study of Mus musculus with 8 samples.

Results

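The CXC chemokines are a family of small secreted proteins, and 8 of them are described here by their messenger RNA in single cells of the mouse brain: *Cxcl1*, *Cxcl2*, *Cxcl3*, *Cxcl9*, *Cxcl10*, *Cxcl12*, *Cxcl13* and *Cxcl16*. They were chosen by symbol, each symbol stood once in the gene tables, and together they are 8 of the 32227 genes listed there. The study asked how a peripheral inflammatory stimulus changes immune cells in and around the brain, and how much of what is measured is made while the tissue is being dissociated. All 8 mice were male C57Bl/6J animals, given by the labels as 5 to 6 months old. Into the abdomen, 4 of them were given lipopolysaccharide (LPS, a component of the bacterial outer membrane) once at 15000000 EU/kg and the other 4 saline, and all brains were taken 24 hours later. Every brain was dissociated with enzymes, either with actinomycin D, triptolide and anisomycin, which block transcription and translation ("inhibitors"), or with their solvent DMSO. CD45+ cells were then isolated magnetically and 1 PIPseq library was made per mouse, which gave 2 libraries per combination of treatments, replicate 1 captured on day 1 and replicate 2 on day 2. The brains were not perfused, so cells inside the vessels were collected with those of the tissue.

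Chemokines guide leukocytes along gradients through receptors on their surface, and the CXC group is named for 1 residue between its first conserved cysteines. *Cxcl1*, *Cxcl2* and *Cxcl3* encode ligands of CXCR2, the receptor through which neutrophils are called out of blood. *Cxcl9* and *Cxcl10* encode interferon-inducible ligands of CXCR3, which activated T-cells and NK cells carry. *Cxcl12* encodes the constitutively made ligand of CXCR4 and of the scavenger ACKR3, *Cxcl13* the ligand of CXCR5 that organizes B-cell follicles, and *Cxcl16* a membrane-anchored ligand of CXCR6 that is released by proteases of the ADAM family.

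The sequence just before the transcription start is shown for 5 members, the 4 with a match to a searched motif and *Cxcl12*, the member called lower, which has none. *Cxcl9* and *Cxcl13*, which were called higher, have no match either. Since *Cxcl12* is the only member called lower, these promoters cannot show whether motif and direction run together. The sequences come from RefSeq on GRCm38.p6, an older build than the one the counts were made on, and cover the 250 bases before the start, 5′ to 3′ on the strand of the gene. Of the 8 members, 7 had an entry, and *Cxcl16* had none. Capitals mark matches to the kappaB motif, which NF-kappaB proteins bind, and to the core of the interferon-stimulated response element, both searched on both strands. *Cxcl1* stands at chr5:90890995-90891244 on the plus strand, *Cxcl2* at chr5:90903649-90903898 (plus), *Cxcl3* at chr5:90785851-90786100 (plus), *Cxcl10* at chr5:92348890-92349139 (minus) and *Cxcl12* at chr6:117168285-117168534 (plus).
Cxcl1: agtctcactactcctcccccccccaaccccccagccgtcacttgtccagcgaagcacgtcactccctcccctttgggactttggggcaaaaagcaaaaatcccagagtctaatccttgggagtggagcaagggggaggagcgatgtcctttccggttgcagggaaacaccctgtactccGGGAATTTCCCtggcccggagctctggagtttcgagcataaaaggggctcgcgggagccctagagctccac
Cxcl2: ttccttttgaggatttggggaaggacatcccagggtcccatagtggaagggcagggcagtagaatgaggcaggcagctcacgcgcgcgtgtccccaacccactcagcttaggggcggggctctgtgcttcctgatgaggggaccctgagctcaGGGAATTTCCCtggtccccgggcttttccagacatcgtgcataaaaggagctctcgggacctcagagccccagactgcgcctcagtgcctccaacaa
Cxcl3: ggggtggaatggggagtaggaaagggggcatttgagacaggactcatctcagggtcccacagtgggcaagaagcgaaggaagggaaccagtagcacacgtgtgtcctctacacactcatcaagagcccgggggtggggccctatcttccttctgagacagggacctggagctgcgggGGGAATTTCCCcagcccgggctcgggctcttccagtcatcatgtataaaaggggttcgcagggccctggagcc
Cxcl10: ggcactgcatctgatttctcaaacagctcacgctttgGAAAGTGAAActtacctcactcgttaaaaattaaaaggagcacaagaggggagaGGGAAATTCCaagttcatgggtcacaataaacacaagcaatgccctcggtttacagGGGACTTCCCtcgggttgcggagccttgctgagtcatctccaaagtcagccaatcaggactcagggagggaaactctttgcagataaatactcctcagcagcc
Cxcl12: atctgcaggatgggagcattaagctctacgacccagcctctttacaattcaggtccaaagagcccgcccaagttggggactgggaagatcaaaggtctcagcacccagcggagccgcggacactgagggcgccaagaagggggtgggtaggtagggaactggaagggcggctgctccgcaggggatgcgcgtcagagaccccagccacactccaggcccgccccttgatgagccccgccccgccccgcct

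The promoters of the 3 CXCR2 ligands held the same run of 11 bases, GGGAATTTCCC, which matches the kappaB motif once on each strand with the matches overlapping. The plus-strand match began 71 bases before the start in *Cxcl1*, 97 in *Cxcl2* and 73 in *Cxcl3*. The promoter of *Cxcl10* held 2 kappaB matches, beginning 159 and 103 bases before the start, and 1 match to the interferon-stimulated element beginning 213 bases before it. No match to either lay in this window of *Cxcl9*, *Cxcl12* or *Cxcl13*. Thus 4 of the 7 members with an entry held a kappaB match and 1 held the interferon-stimulated core, against 3.9% and 2.98% of 32851 promoters of the same length. A match describes letters in a window and is not a measurement of binding.

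Cells with 800 to 44999 UMIs (unique molecules), 250 to 6499 genes and under 5% mitochondrial counts numbered 119053, from 12039 to 17364 per library. Of these, 106500 were assigned to classes by marker lists that hold no CXC chemokine (1 list, that of mature dendritic cells, holds the CC chemokine *Ccl22*), and levels are given as counts per 1000000 UMIs of the class (CPM) in each library. The assigned share was 92.3% to 95.5% of cells in saline libraries and 83.4% to 86.9% in LPS libraries, without overlap. The median depth was 4149 to 4763 UMIs per cell in the LPS libraries and 2207 to 3161 in the saline libraries, so every LPS library was deeper than every saline library. Microglia made up 90026 cells, border-associated macrophages 3244, classical monocytes 4450, neutrophils 1564, B-cells 1161, T-cells 771, NK cells 392, endothelial cells 1446, mural cells 310 and leptomeningeal fibroblasts 194. Cells were assigned by these markers, so their presence in each class follows from the gate. The summed level of a class's own markers was lower with LPS in microglia (40800 to 42410 CPM with saline and 7609 to 8587 CPM with LPS), border-associated macrophages and endothelial cells. The part of these lower marker levels in the assigned share and in the chemokine levels was not tested. The endothelial, mural and leptomeningeal cells had been carried through a CD45 selection whose target, *Ptprc*, had a median of 16.6, 9.01 and 9.94 CPM in them against 164 CPM in microglia. Conventional dendritic cells (149), nonclassical monocytes (294) and mature dendritic cells (291) were almost wholly of saline or of LPS libraries and could not be compared between them. RNA outside cells, in barcodes with fewer than 100 UMIs, was 15.5% to 33.7% of the UMIs of a library, and an estimate of its part in a level is given where it was large.

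**Figure D1:**
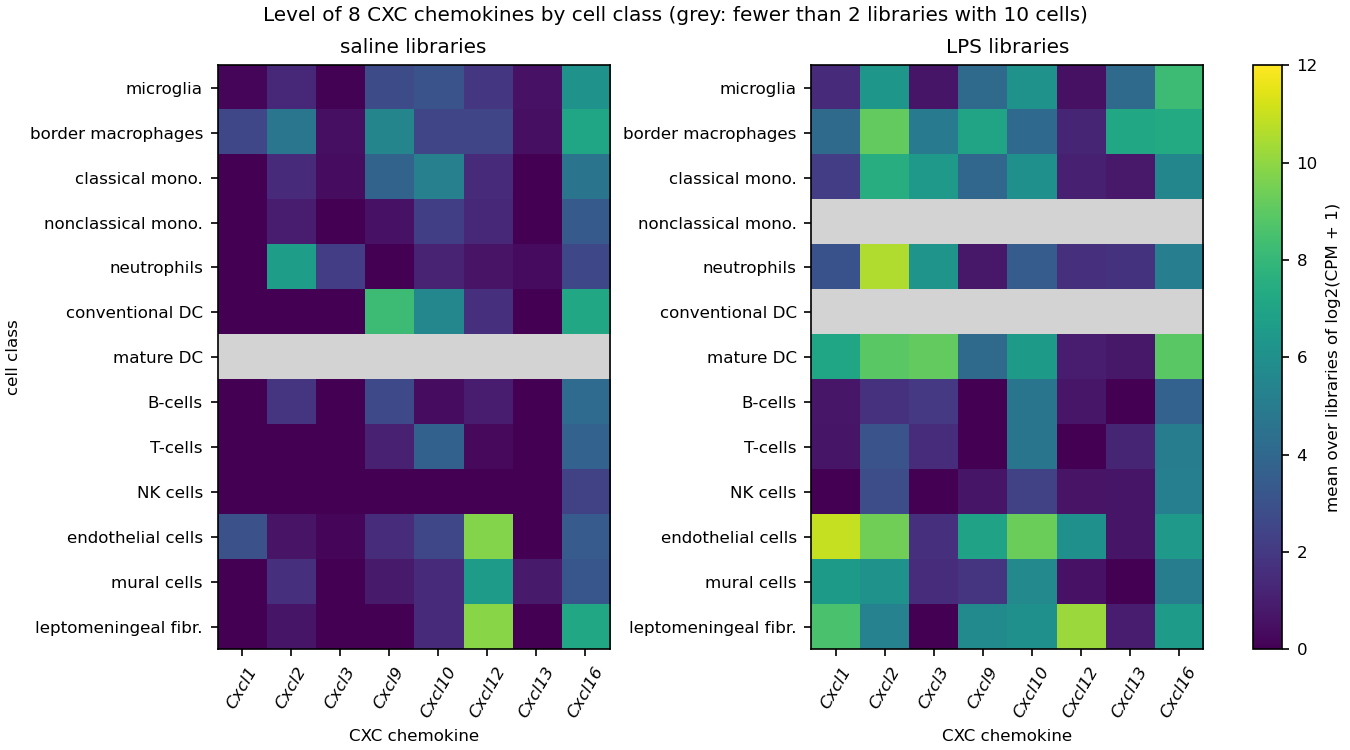
Mean level of the 8 CXC chemokines, as the mean over libraries of log2(CPM + 1), in 13 cell classes (rows) of the saline libraries (left) and the LPS libraries (right). Grey rows had fewer than 2 libraries with 10 cells of the class. The brightest cells on the right are *Cxcl1* in endothelial cells and *Cxcl2* in neutrophils, and *Cxcl12* in endothelial cells is bright on the left and dimmer on the right.

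LPS was compared with saline in 10 classes by a model with the dissociation treatment as a covariate, fitted over all genes of the class. Of 80 pairs of a member and a class, 34 passed the filter on low counts in 8 classes, and 28 of these were called at an adjusted p under 0.05, 26 higher and 2 lower with LPS. A chemokine that was close to 0 in saline could pass the filter through the LPS libraries alone, so these counts describe the members and are not support for a direction. In microglia 7 of 8 members were called higher and 1 lower, where 29.1% of 21216 genes tested were called higher and 33.8% lower. The median log2 fold change of the 8 members was 4.16 in microglia against -0.20 for all genes. In endothelial cells 5 of the 6 tested were called higher and 1 lower (background 21% and 21.9%), with a median of 6.03 against -0.03. In border-associated macrophages, which line the meninges and vessels, 6 of 6 were called higher (background 24%, median 3.41 against -0.03), in neutrophils 3 of 3 (background 12.8%), in classical monocytes 2 of 5 (background 11.3%), in leptomeningeal fibroblasts 2 of 4 (background 14.7%), in B-cells 1 of 1 (background 5.26%) and in T-cells 0 of 1 (background 9.03%). No member passed the filter in NK cells or mural cells, where 23.7% and 27.1% of the genes tested were called. On day 1 alone 30 of the 36 pairs tested were called, where 33.2% of all genes were called in either direction on average over the classes of these pairs, and on day 2 alone 27 of 32, where 34.3% were.

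**Figure D2:**
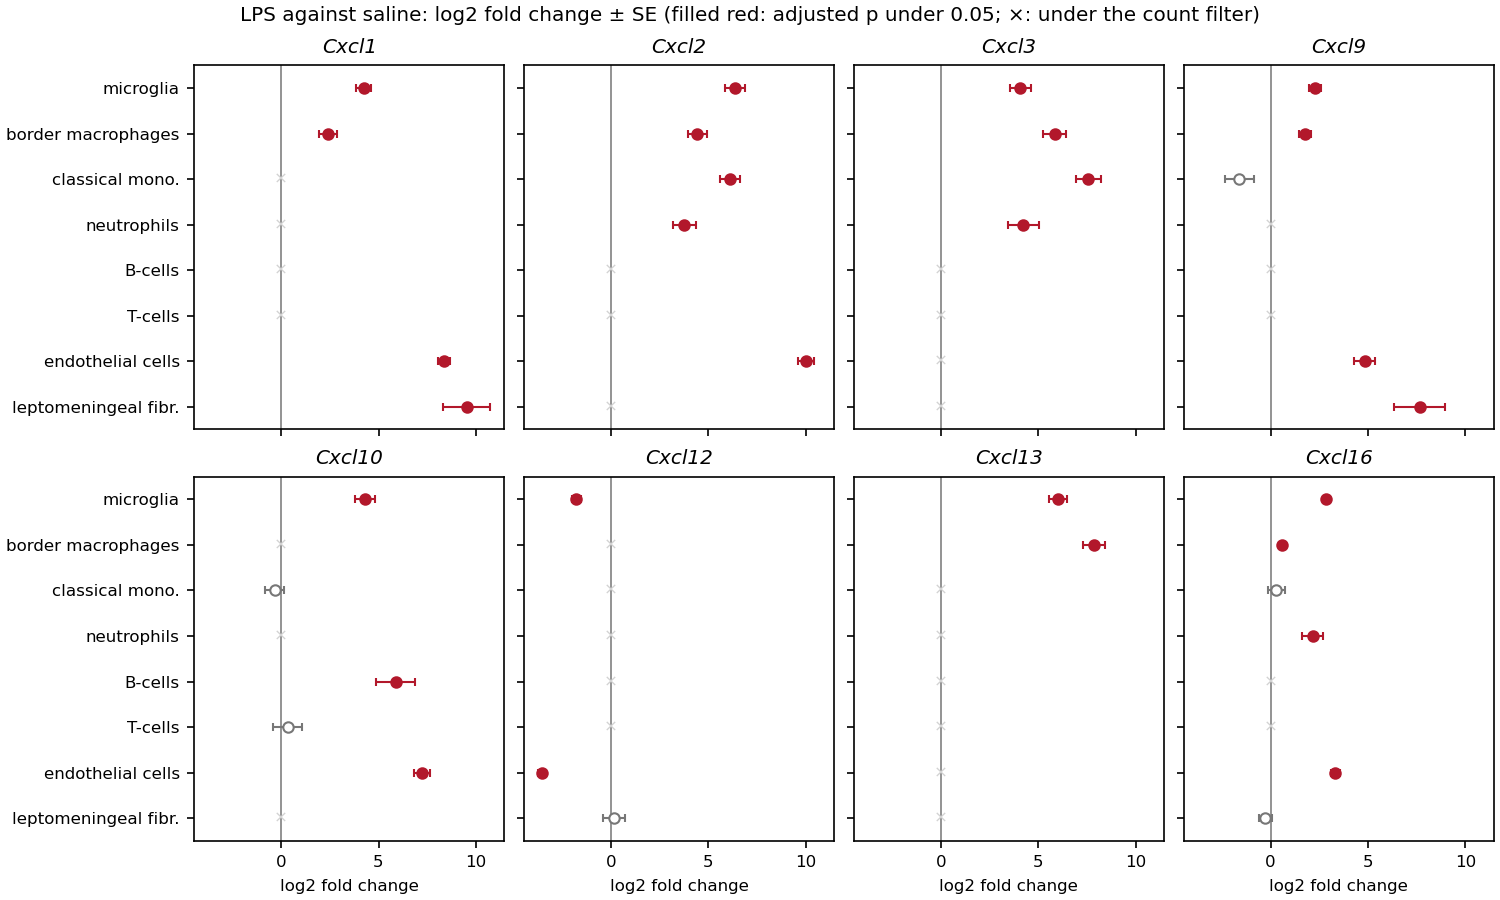
Log2 fold change of LPS against saline with its standard error for each member (panels) in 8 cell classes (rows), from the edgeR fit. Filled red points have an adjusted p under 0.05, open points do not, and crosses at 0 mark pairs under the count filter, which have no estimate. The red points lie right of 0 for every member except *Cxcl12*, which lies left of 0 in microglia and endothelial cells.

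Among the CXCR2 ligands, *Cxcl1* stood out in the endothelium, the inner lining of vessels. In saline libraries its endothelial level was 5.05 and 11.2 CPM with DMSO (replicates 1 and 2, the order used throughout) and 8.19 and 4.47 CPM with inhibitors. In LPS libraries it was 3538 and 1771 CPM with DMSO and 1689 and 1442 CPM with inhibitors. All 4 LPS libraries lay far above every saline library, and replicate 1 of LPS DMSO stood highest. The log2 fold change was 8.36 (SE 0.32, edgeR adjusted p = 1.67e-11). After every cell was thinned to 800 UMIs, 33.6% ± 8.1 (SD, n = 4) of endothelial cells of LPS libraries held a *Cxcl1* UMI against 0.673% ± 0.497 of saline libraries (46.9% and 2.21% unthinned), and the share in LPS B-cells, a class that should lack the transcript, was 0.385% at the same depth.

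*Cxcl1* was also found in the other cells of the vessel wall and meninges. In leptomeningeal fibroblasts the saline libraries held no UMI, and the LPS libraries stood at 507 and 92.5 CPM with DMSO and 1283 and 344 CPM with inhibitors. Against a floor of 3 UMIs over the group this was at least 61.1-fold higher (edgeR adjusted p = 9.61e-05). In mural cells, the contractile cells around vessels, the saline libraries again held none and the LPS libraries 94.2, 57.2, 254.8 and 53.2 CPM, at least 17.3-fold higher, without a test since the gene stayed under the count filter there. Neither class overlapped between saline and LPS.

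In microglia *Cxcl1* ranged from 0.077 to 0.238 CPM in saline and from 1.13 to 3.14 CPM in LPS libraries. The groups did not overlap and the log2 fold change was 4.23 (SE 0.38, edgeR adjusted p = 7.42e-07), but the level expected from RNA outside cells was 82.5% of the measured one with LPS and 50.6% with saline, and the gene no longer passed the count filter once that was subtracted. Border-associated macrophages were at 18.7 and 5.76 CPM (DMSO) and 1.42 and 2.75 CPM (inhibitors) with saline, and at 91.1 and 24.2 CPM (DMSO) and 2.56 and 10.4 CPM (inhibitors) with LPS. Here the LPS inhibitor libraries lay among the saline libraries, and the log2 fold change of 2.40 (SE 0.46, edgeR adjusted p = 0.000315) came from libraries that overlapped. Classical monocytes and neutrophils had no *Cxcl1* UMI in saline libraries and 1.81 to 7.98 CPM and 2.21 to 26 CPM in LPS libraries, at least 3.36-fold and 3.32-fold higher. With LPS, RNA outside cells made up an estimated 5.43% to 8.2% of all UMIs in monocytes and 8.36% to 13.4% in neutrophils. In microglia it was 3.54% to 4.31%. How much of these low *Cxcl1* levels it gives is not shown here, so they are not assigned to the cells.

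In the main fit over both capture days, *Cxcl2* was raised in every class in which it was tested. Mural cells, where it could be tested on day 1 alone, gave no call. In neutrophils, which both make and sense this ligand, the saline libraries stood at 152.5 and 83.7 CPM with DMSO and 37 and 228.1 CPM with inhibitors, and the LPS libraries at 6560 and 1910 CPM with DMSO and 858.4 and 518.4 CPM with inhibitors. The groups did not overlap, and the LPS DMSO libraries were the 2 highest (log2 fold change 3.77, SE 0.61, edgeR adjusted p = 0.000102). In border-associated macrophages saline gave 160.6 and 27.4 CPM with DMSO and 3.55 and 22 CPM with inhibitors, and LPS gave 2267 and 716.3 CPM with DMSO and 172.9 and 340.5 CPM with inhibitors. The lowest LPS library lay just above the highest saline library (log2 fold change 4.43, SE 0.48, edgeR adjusted p = 6.19e-07). In thinned neutrophils 45% ± 21.2 (SD, n = 4) of cells held a *Cxcl2* UMI with LPS against 5.62% ± 2.28 with saline (53.2% and 6.03% unthinned), and in thinned macrophages 26.8% ± 20.2 against 1.98% ± 2.49 (37.7% and 2.84% unthinned). The share in LPS NK cells, for comparison, was 1.55% ± 1.99.

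In endothelial cells *Cxcl2* went from 0 and 2.24 CPM with DMSO and 0.819 and 0 CPM with inhibitors in saline to 1539 and 827.2 CPM with DMSO and 400.7 and 411 CPM with inhibitors in LPS. Only 3 UMIs were counted in all saline libraries together, against 2747 with LPS, a ratio of 1367 with a 95% counting interval of 467 to 6635 (edgeR adjusted p = 2.01e-11). Classical monocytes held 13.2, 2.99, 0 and 0 CPM in saline and 409.5, 154.5, 137.8 and 113.7 CPM in LPS libraries (log2 fold change 6.12, SE 0.50, edgeR adjusted p = 1.43e-06). Microglia held 6.14, 1.62, 0.33 and 0.655 CPM in saline and 149.6, 60.3, 70.7 and 65.4 CPM in LPS libraries (log2 fold change 6.38, SE 0.52, edgeR adjusted p = 3.34e-07). In these 3 classes no LPS library overlapped a saline one, and in each the highest library was replicate 1 of LPS DMSO. With LPS the top 1% of cells held 19.6% to 48.8% of the *Cxcl2* UMIs in endothelial cells, 19.3% to 69.8% in monocytes and 34.2% to 56.2% in microglia. In replicate 2 of LPS inhibitors, 1 monocyte held 229 of the 540 UMIs of its class.

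*Cxcl3* was concentrated in myeloid cells of blood origin. Classical monocytes held a single UMI in saline, in replicate 1 with inhibitors, and 84.4 and 85.3 CPM with DMSO and 147 and 58.1 CPM with inhibitors in LPS libraries, a ratio of 204.8 with a counting interval of 36.7 to 8093 (edgeR adjusted p = 1.97e-06). Few monocytes carried this level. The top 1% held 62.2% to 78.3% of the *Cxcl3* UMIs with LPS, up to 91 in 1 cell. A UMI was found in 2.9% ± 1.2 (SD) of thinned LPS monocytes (5.11% unthinned). Neutrophils held none with DMSO and 18.5 and 20.3 CPM with inhibitors in saline, and 185.9, 21.5, 91.1 and 79.8 CPM in LPS libraries. The lowest LPS library lay just above the highest saline one (log2 fold change 4.24, SE 0.80, edgeR adjusted p = 0.000528). Border-associated macrophages went from 3 UMIs in all to 19.2 to 56.5 CPM, a ratio of 52.9 (interval 17.6 to 261.3, edgeR adjusted p = 2.35e-07). In microglia the level was 0.04 to 0.077 CPM in saline and 0.339 to 1.07 CPM with LPS, of which RNA outside cells would give 57.8%, and the gene failed the count filter after its subtraction (log2 fold change 4.09 without it, edgeR adjusted p = 1.69e-05). Mature dendritic cells, which carry antigen and had enough cells only with LPS, were at 1170, 413.2, 459.8 and 431.6 CPM.

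**Figure D3:**
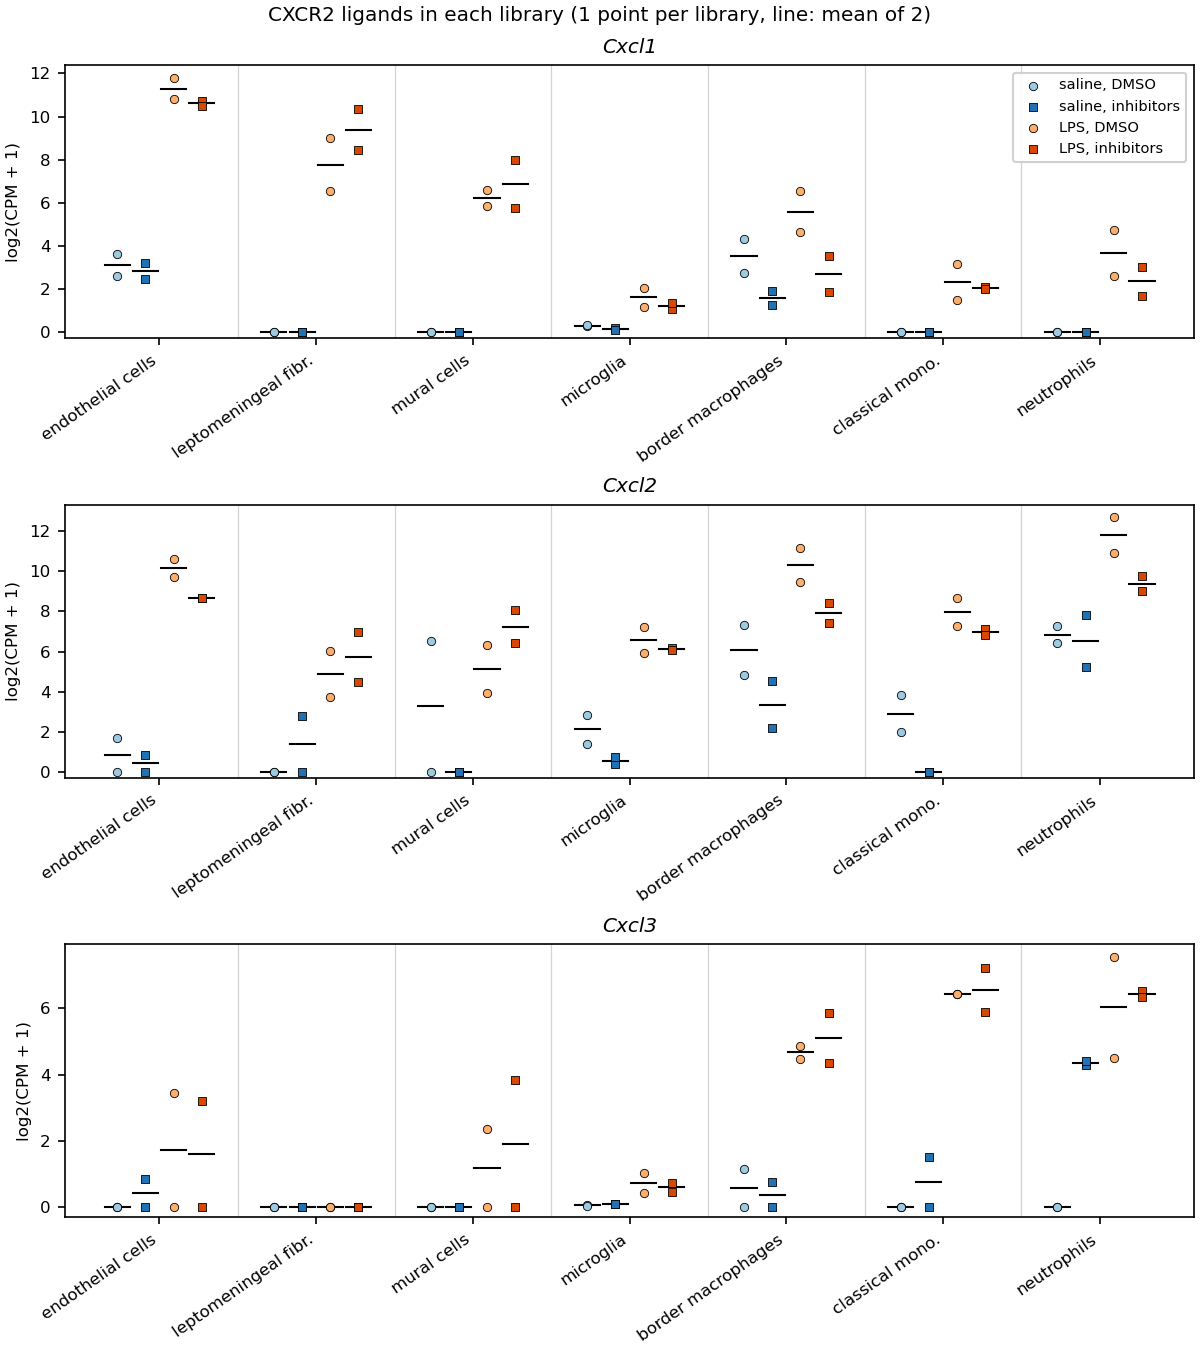
Level of *Cxcl1*, *Cxcl2* and *Cxcl3* as log2(CPM + 1) in each library (points, with the mean of the 2 replicates of a group as a line) in 7 cell classes. Blue points are saline and orange or red points LPS, and circles mark DMSO and squares inhibitors. Endothelial *Cxcl1* is near 3 in the saline groups and between 10 and 12 in the LPS groups. Within saline and within LPS, the DMSO circles of border-associated macrophages lie above the inhibitor squares for *Cxcl1* and *Cxcl2*.

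Both CXCR3 ligands were called higher in endothelial cells and microglia, and *Cxcl9* also in border-associated macrophages and leptomeningeal fibroblasts. The only call in a lymphoid class was *Cxcl10* in B-cells, on 24 UMIs with LPS. *Cxcl10* in endothelial cells was at 6.06 and 4.48 CPM with DMSO and 2.46 and 7.45 CPM with inhibitors in saline, and at 913 and 297 CPM with DMSO and 668 and 838 CPM with inhibitors in LPS libraries. The groups were far apart (log2 fold change 7.23, SE 0.39, edgeR adjusted p = 3.5e-10). In microglia the saline libraries lay between 5.39 and 11.3 CPM and the LPS libraries at 192.8 and 23.4 CPM with DMSO and 78.1 and 74.2 CPM with inhibitors. They did not overlap, although the LPS libraries differed more among themselves than for most members (log2 fold change 4.31, SE 0.51, edgeR adjusted p = 8.3e-06). In thinned cells, 18.3% ± 10 (SD, n = 4) of endothelial cells with LPS held a *Cxcl10* UMI against 0.247% ± 0.287 with saline (31.3% and 1.55% unthinned), and 2.72% ± 2.27 of microglia against 0.191% ± 0.063 (7.19% and 0.471% unthinned). The share in LPS NK cells was 0.51% ± 1.02.

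In classical monocytes *Cxcl10* was at 3.29 and 86.8 CPM (DMSO) and 208.9 and 24.2 CPM (inhibitors) in saline and at 54.1 to 83.9 CPM with LPS, so the saline libraries spread on both sides of the LPS libraries (log2 fold change -0.34, interval -1.29 to 0.62, edgeR adjusted p = 0.673). B-cells held 2 UMIs in all of saline, and 87.2 and 0 CPM with DMSO and 64.9 and 70.7 CPM with inhibitors in LPS libraries, a ratio of 78.9 (interval 19.6 to 688.5, edgeR adjusted p = 0.00014) although replicate 2 of LPS DMSO held none. In T-cells replicate 1 of saline DMSO was highest at 138 CPM, the other saline libraries lay at 4.41 to 6.34 CPM and the LPS libraries at 6.46 to 49.8 CPM (log2 fold change 0.33, edgeR adjusted p = 0.811, and 2.64 with adjusted p = 0.026 without that library).

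*Cxcl9* was already present in saline brains. Conventional dendritic cells, which prime T-cells, held 495.9 and 178.6 CPM with DMSO and 300.8 and 300.4 CPM with inhibitors in saline. Border-associated macrophages were at 18.1 and 40.3 CPM (DMSO) and 47.5 and 100.9 CPM (inhibitors) with saline and at 85.9, 150, 130.7 and 151.7 CPM with LPS, where 1 saline library lay above the lowest LPS library (log2 fold change 1.78, SE 0.32, edgeR adjusted p = 0.000152). In that saline library, replicate 2 of inhibitors, the top 1% of macrophages held 88.4% of the UMIs and 1 cell held 76. In microglia saline gave 4.05, 3.05, 13.6 and 6.58 CPM and LPS 18.6, 12.4, 12.6 and 26.5 CPM, again with an overlap of 1 library (log2 fold change 2.30, SE 0.31, edgeR adjusted p = 3.36e-05). The overlapping library was replicate 1 of saline inhibitors, where 1 cell held 234 of the 620 microglial UMIs. Endothelial cells went from 0 to 19.2 CPM in saline to 86.3 to 180.1 CPM with LPS without overlap (log2 fold change 4.82, SE 0.51, edgeR adjusted p = 9.31e-07). Leptomeningeal fibroblasts held none in saline and 263.3, 141.9, 0 and 204.7 CPM with LPS, so that 1 LPS library lay at the saline level. This was at least 26.1-fold higher (edgeR adjusted p = 0.000841), and the call was lost with DESeq2 (adjusted p = 0.076).

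In classical monocytes *Cxcl9* was at 0 and 7.98 CPM (DMSO) and 223.7 and 17.6 CPM (inhibitors) in saline and at 11.8 to 19.6 CPM with LPS (log2 fold change -1.60, SE 0.75, edgeR adjusted p = 0.139, and 0.76 with adjusted p = 0.283 without the library at 223.7 CPM). In that library, 93.4% of the UMIs were in the top 1% of cells and 1 cell held 106. The same library, replicate 1 of saline inhibitors, was also the highest saline library for *Cxcl10* and *Cxcl16* in this class. It had the highest summed level of dendritic cell markers in monocytes, 388.2 CPM against 84.8 to 210.9 CPM in the other saline libraries, and the monocytes of both saline DMSO libraries carried neutrophil markers at 6120 to 6512 CPM against 439.9 to 452.5 CPM with saline inhibitors and 350.5 to 629.2 CPM with LPS. The part of either in the monocyte values was not tested. B-cells of saline held 34 *Cxcl9* UMIs, most of them in that same library (87.5 CPM), and those of LPS none.

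In the main fit *Cxcl12* was the only member called lower, in endothelial cells and microglia. Its endothelial level in saline was 1074 and 828.5 CPM with DMSO and 879 and 778 CPM with inhibitors, and with LPS it was 69 and 44.7 CPM with DMSO and 88.5 and 62 CPM with inhibitors. The 4 libraries of each kind lay close together and far from the other kind, and the level fell by 3.54 on the log2 scale (SE 0.20, edgeR adjusted p = 5.49e-10). The share of thinned endothelial cells with a UMI was 44.5% ± 3.6 (SD, n = 4) with saline and 5.47% ± 1.17 with LPS (70.6% and 20.7% unthinned), against 0.235% and 0.048% of thinned microglia. Mural cells held 100.9 and 204.6 CPM (DMSO) and 85.2 and 47.2 CPM (inhibitors) with saline and 1 UMI in all with LPS, a ratio of 43.2 (counting interval 7.34 to 1743). In the main fit the gene was under the count filter in this class. On day 1 alone, where it could be tested, mural *Cxcl12* was called lower (log2 fold change -4.67).

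Leptomeningeal fibroblasts kept a high *Cxcl12* level, with 575 and 4812 CPM (DMSO) and 390 and 716 CPM (inhibitors) in saline and 1858 and 882 CPM (DMSO) and 740 and 1501 CPM (inhibitors) in LPS libraries. Replicate 2 of saline DMSO stood far above the other saline libraries. The log2 fold change was 0.16 (interval -0.96 to 1.28, edgeR adjusted p = 0.864), and 1.31 (adjusted p = 0.028) without that library. On day 1 alone it was 1.55 (adjusted p = 0.00072) and on day 2 alone -0.52 (adjusted p = 0.601). In microglia saline gave 2.24 to 3.09 CPM and LPS 0.268 to 0.588 CPM without overlap, a fall by 1.77 on the log2 scale (SE 0.24, edgeR adjusted p = 3.05e-05). RNA outside cells would give 78.2% of the saline level and 67.4% of the LPS level, and after its subtraction the log2 fold change was -1.27 with adjusted p = 0.098.

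*Cxcl13* was near 0 in saline and found in few cells with LPS. Border-associated macrophages held none in 3 saline libraries and 2.84 CPM in replicate 1 with inhibitors, and 321.6 and 82.3 CPM (DMSO) and 120.4 and 132.3 CPM (inhibitors) with LPS (log2 fold change 7.86, SE 0.57, edgeR adjusted p = 3.94e-09). Microglia were at 0.165 to 0.792 CPM with saline and at 26.6, 6.81, 25.5 and 16.1 CPM with LPS (log2 fold change 6.03, SE 0.47, edgeR adjusted p = 1.98e-07). Neither class overlapped. Only 2.07% ± 0.741 (SD, n = 4) of thinned macrophages and 0.3% ± 0.055 of thinned microglia held a UMI with LPS (2.93% and 0.862% unthinned), and the top 1% of microglia by *Cxcl13* held 99.8% to 100% of its UMIs, up to 316 in 1 cell. In the macrophages the top 1% held 66.5% to 97.8%. For comparison, the share of thinned LPS neutrophils with a *Cxcl13* UMI was 0.71% and 0% with DMSO and 0% and 0.25% with inhibitors. The microglial share lay within this range, so it is not read as a share of expressing cells.

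*Cxcl16* had the opposite spread. Microglia held 62.1 and 69.4 CPM (DMSO) and 71.8 and 76.7 CPM (inhibitors) in saline and 276.9 and 258.6 CPM (DMSO) and 340.7 and 334.3 CPM (inhibitors) with LPS, with little spread and no overlap (log2 fold change 2.86, SE 0.14, edgeR adjusted p = 4.44e-09). The top 1% of microglia held 5.49% to 6.47% of the UMIs with LPS, and the share of thinned microglia with a UMI was 20.7% ± 2.74 (SD, n = 4) against 4.67% ± 0.376 in saline (66.9% and 14.7% unthinned), and 0.905% ± 1.07 of LPS NK cells. Endothelial cells went from 6.7 to 15.1 CPM to 53.8 to 109.4 CPM without overlap (log2 fold change 3.33, SE 0.23, edgeR adjusted p = 5.28e-09). Border-associated macrophages already held 121.4 to 159.5 CPM in saline and held 154.6 to 166.2 CPM with LPS, ranges that overlap (log2 fold change 0.59, SE 0.15, edgeR adjusted p = 0.00316, and 0.20 with adjusted p = 0.256 when libraries were scaled by their totals alone).

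In neutrophils *Cxcl16* was called higher (0 to 18.5 CPM against 21.5 to 43.2 CPM, log2 fold change 2.16, SE 0.54, edgeR adjusted p = 0.00522), and RNA outside cells would give 83.3% of the LPS level. Classical monocytes were at 6.57 and 8.98 CPM (DMSO) and 129.4 and 35.2 CPM (inhibitors) in saline and at 35.1 to 55.8 CPM with LPS (log2 fold change 0.30, interval -0.58 to 1.18, edgeR adjusted p = 0.682), and without replicate 1 of saline inhibitors the value was 1.45 with adjusted p = 0.0031. Leptomeningeal fibroblasts held 101.4 to 182.3 CPM in saline and 61.7 to 133.4 CPM with LPS, which overlapped (log2 fold change -0.26, edgeR adjusted p = 0.6). Mature dendritic cells with LPS stood at 531.7, 467.1, 445.7 and 494.2 CPM.

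**Figure D4:**
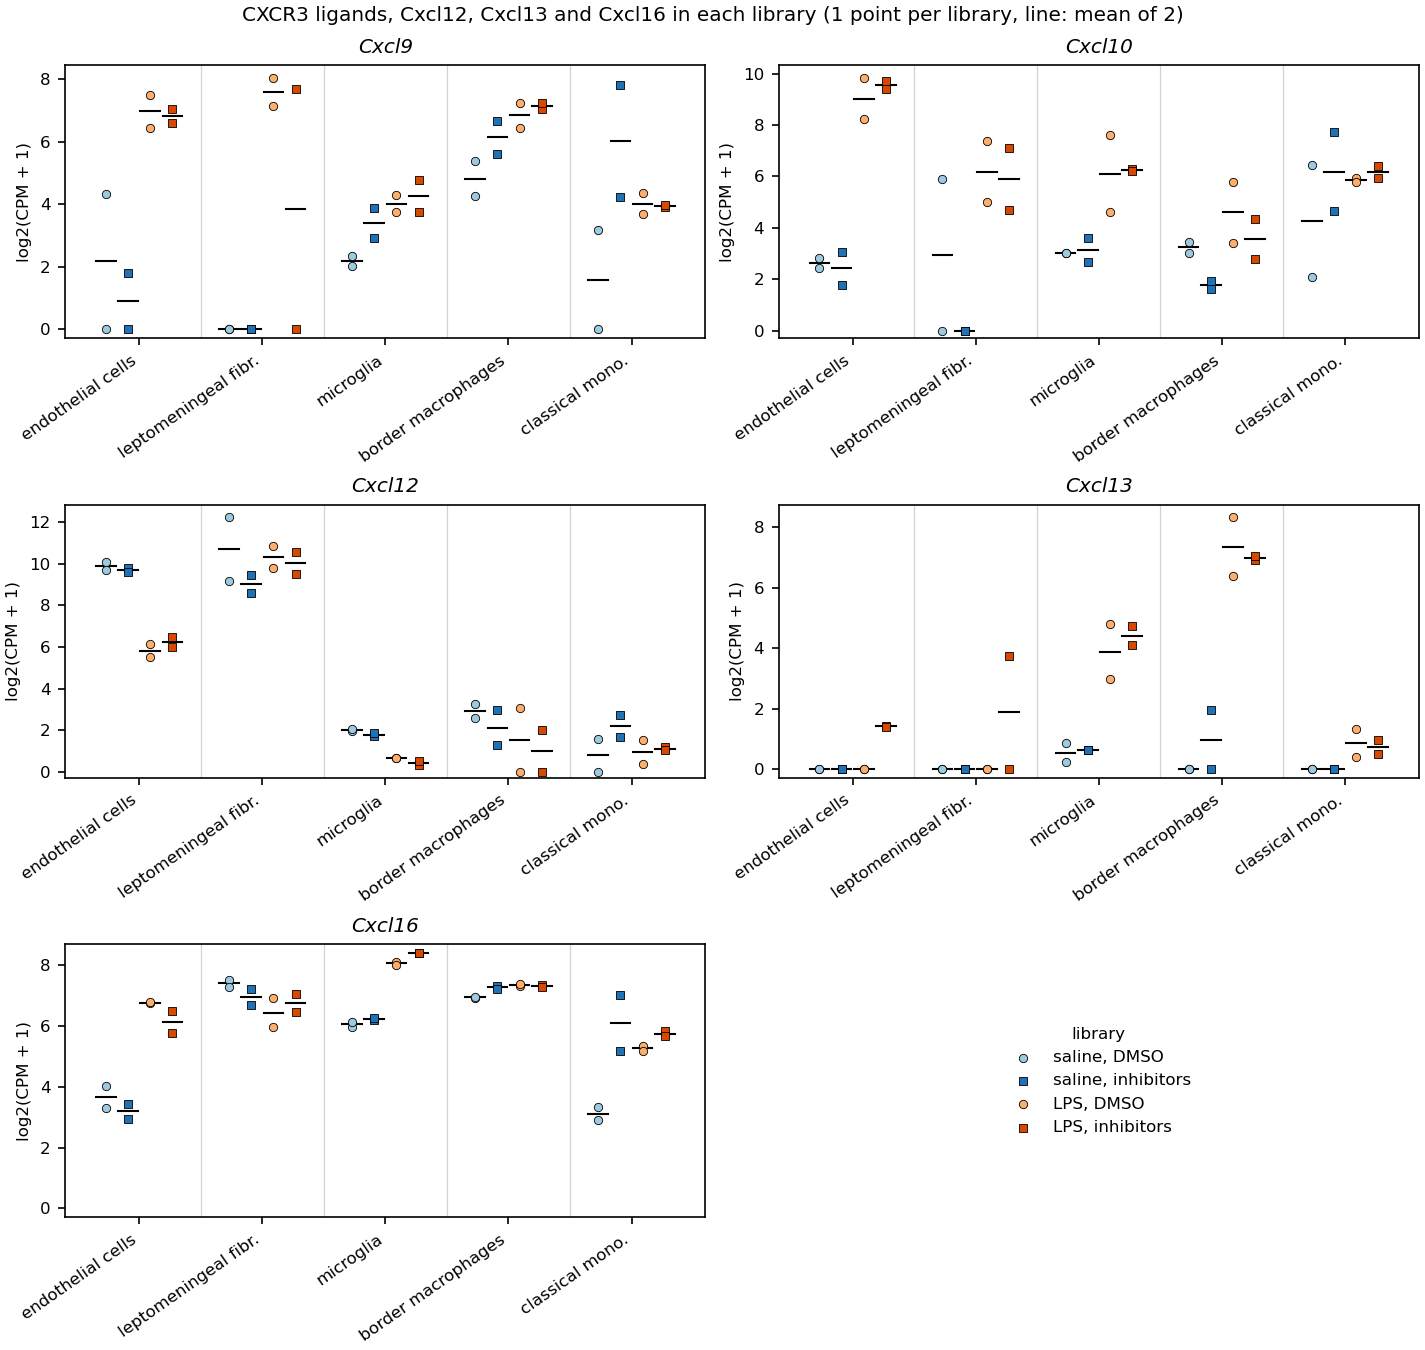
Level of *Cxcl9*, *Cxcl10*, *Cxcl12*, *Cxcl13* and *Cxcl16* as log2(CPM + 1) in each library (points, with the mean of the 2 replicates of a group as a line) in 5 cell classes. Blue points are saline and orange or red points LPS, and circles mark DMSO and squares inhibitors. *Cxcl12* in endothelial cells is near 10 in saline and near 6 with LPS, and 1 saline inhibitor library of classical monocytes stands high for *Cxcl9*, *Cxcl10* and *Cxcl16*.

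The order of the classes by level differed between saline and LPS libraries for several members, so it is given within each kind of library as mean differences of log2(CPM + 1) over 4 libraries, without a test. It covers the 10 classes compared between saline and LPS and leaves out nonclassical monocytes and the dendritic cells, although saline conventional dendritic cells lay above every saline border-associated macrophage library for *Cxcl9* and mature dendritic cells with LPS above every monocyte and neutrophil library for *Cxcl3* and every microglial library for *Cxcl16*. For *Cxcl1* endothelial cells came first, ahead of border-associated macrophages with saline (0.41, SD 1.53, higher in 3 of 4) and of leptomeningeal fibroblasts with LPS (2.38, SD 1.60, higher in 4 of 4). Neutrophils led *Cxcl2*, ahead of border-associated macrophages with saline (1.97, SD 1.57, higher in 3 of 4) and of endothelial cells with LPS (1.18, SD 0.72, higher in 4 of 4), where endothelial cells and macrophages did not differ beyond their spread (0.28, SD 0.72). Monocytes and neutrophils shared the head of *Cxcl3* among the 10 classes with LPS (0.26, SD 1.35, monocytes higher in 2 of 4).

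For *Cxcl9* the macrophages led these classes, with endothelial cells within the spread with LPS (0.10, SD 0.81). Among the same classes *Cxcl10* was led by classical monocytes with saline, within the spread of the T-cells next to them (1.5, SD 4.48) and with saline conventional dendritic cells, outside the order, at 31, 12.8, 34.5 and 327.7 CPM, and by endothelial cells with LPS, above microglia in 4 of 4 libraries (3.10, SD 0.62). Leptomeningeal fibroblasts and endothelial cells were within their spread for *Cxcl12* with saline (0.09, SD 1.69) and apart with LPS (4.16, SD 0.76, fibroblasts higher in 4 of 4). Border-associated macrophages stood above microglia for *Cxcl13* with LPS (3.03, SD 0.61, 4 of 4). For *Cxcl16* they stood above microglia with saline (0.96, SD 0.14, 4 of 4), and microglia stood above them with LPS (0.91, SD 0.22, 4 of 4). With saline and LPS libraries pooled, none of the 72 differences between neighbouring classes passed an exact sign-flip permutation test after adjustment, and 8 had an unadjusted p under 0.05. The smallest p this test can give over 8 libraries is 0.0078, so a single difference at that floor could not pass the adjustment. It also pools libraries whose order of classes differed, so nothing about the order is concluded from it.

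Since the classes differ in size, their shares of the UMIs combine the number of cells, their RNA content and the level. The number of cells also follows the CD45 selection, so the shares describe the collected cells and not the sources in the brain. Endothelial cells gave a median of 84.6% of the *Cxcl1* UMIs of gated cells in LPS libraries. Microglia gave 62.6% of *Cxcl2*, 74.5% of *Cxcl9*, 85.1% of *Cxcl10*, 89.1% of *Cxcl13* and 97.1% of *Cxcl16*. Classical monocytes gave 62.9% of *Cxcl3* and mature dendritic cells 15.5%. For *Cxcl12*, endothelial cells gave 84.9% in saline libraries and 14.8% in LPS libraries, where leptomeningeal fibroblasts gave 72.6%.

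Within a class, some members were counted in the same cells. In thinned endothelial cells with LPS, *Cxcl2* was found in 38% of the cells with *Cxcl1* and in 4.32% of the others, higher in 4 of 4 libraries. *Cxcl3* was found in 15.7% of the monocytes with *Cxcl2* and in 1.75% of the others, and in 11% of the neutrophils with *Cxcl2* against 0.674%, higher in 4 of 4 libraries in both. In microglia *Cxcl2* was found in 10% of the cells with *Cxcl10* and in 3.84% of the others (4 of 4 libraries). These shares are a description over cells of the same libraries and carry no test.

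Whether a change differed between microglia and another class was tested in a model with the mouse as a block. Of the CXCR2 and CXCR3 ligands, 4 of 5 rose more in endothelial cells than in microglia, by 4.16 for *Cxcl1*, 3.96 for *Cxcl2*, 2.66 for *Cxcl9* and 3.04 for *Cxcl10* on the log2 scale, and *Cxcl12* fell further by 1.87 (edgeR adjusted p from 5.42e-30 to 4.69e-14). By the estimate given above, most of the microglial *Cxcl1* and *Cxcl12* was RNA outside cells, so their differences are set against a level that is largely background. For *Cxcl16* the difference was 0.47 (interval -0.02 to 0.96, edgeR adjusted p = 0.154), and it was called with libraries scaled by their totals (1.09, adjusted p = 3.59e-05) and without replicate 1 or replicate 2 of saline DMSO, replicate 1 of saline inhibitors or replicate 2 of LPS inhibitors (0.80 to 1.13). Thus 5 of 8 members were called where 29.6% of 20837 genes were, and for each of these 5 the library differences of saline and LPS did not overlap (exact permutation p = 0.0286, the smallest possible). In border-associated macrophages *Cxcl16* rose less than in microglia by 2.08 (edgeR adjusted p = 1.21e-49, exact permutation p = 0.0286) and *Cxcl13* more by 2.16 (edgeR adjusted p = 0.00454, exact permutation p = 0.0286). The call of *Cxcl13* was lost with DESeq2 (adjusted p = 0.1) and without replicate 1 of LPS DMSO, replicate 2 of saline DMSO or replicate 2 of saline inhibitors (1.60 to 1.74).

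The same test called *Cxcl1* (-1.68), *Cxcl2* (-1.84) and *Cxcl10* (-1.70) in macrophages, where the background was 20.1%, but the permutation test gave 0.38 (p = 0.743), -0.60 (p = 0.514) and -1.52 (p = 0.0571). These permutation values are differences of log2(CPM + 1), which compress changes of levels under 1 CPM such as microglial *Cxcl1* in saline. Without replicate 1 of saline DMSO the calls of *Cxcl1* (-0.57, adjusted p = 0.674) and *Cxcl10* (-0.96, adjusted p = 0.21) were lost. In classical monocytes *Cxcl9* (-3.19), *Cxcl10* (-3.75) and *Cxcl16* (-2.14) were called against a background of 23.9%, with permutation p of 0.514, 0.143 and 0.4 and the call of *Cxcl16* lost without replicate 1 of saline inhibitors (-0.93, adjusted p = 0.054), and in neutrophils *Cxcl2* (-2.27) against a background of 15.6%, with permutation p of 0.257. In the edgeR fits of macrophages, neutrophils and endothelial cells the spread was estimated as 1 value shared by all genes of a given level, so the adjusted p does not carry the spread of each gene. Adjusted over the 32 comparisons, no permutation p was under 0.05, and the lowest was 0.0653.

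The inhibitors made it possible to ask which members were higher when transcription could go on during dissociation. In border-associated macrophages *Cxcl1* was higher with DMSO by 3.08 (SE 0.51, edgeR adjusted p = 0.00272) and *Cxcl2* by 2.71 (SE 0.46, edgeR adjusted p = 0.00348), where 0.644% of 9013 genes were called higher. For both, within saline and within LPS, each DMSO library given above lay above both inhibitor libraries. These 2 were the only calls among 34 pairs. Leaving out replicate 1 of LPS DMSO gave 2.36 (adjusted p = 0.085) and 2.23 (adjusted p = 0.052), and DESeq2 gave 2.68 for *Cxcl2* (adjusted p = 0.14). Immediate-early genes, 12 genes such as *Fos* read as a description of dissociation, summed to 8698 to 16900 CPM in the DMSO libraries of this class. In the inhibitor libraries the sum was 727 to 2124 CPM. These genes also moved with LPS. Over all classes, 42.4% of 92 pairs were called higher with LPS and 14.1% lower, against 16.4% and 17.2% of all genes. The part of the immediate-early genes in the levels of *Cxcl1* and *Cxcl2* was not tested.

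In endothelial cells *Cxcl2* was 1.53 higher with DMSO (SE 0.28, edgeR adjusted p = 0.101, where 0.0408% of genes were called), and with capture day as a block it was 1.48 (adjusted p = 0.0024). Neutrophils (1.43), monocytes (1.35) and microglia (1.30) had *Cxcl2* values in the same direction that did not pass the test (edgeR adjusted p = 0.641, 0.658 and 0.999), where 0.178%, 0.0523% and 0.377% of genes were called higher. No member was called in B-cells, T-cells or leptomeningeal fibroblasts either, against 0.154%, 0.194% and 0.0347% of genes. In the LPS libraries alone neutrophil *Cxcl2* was 2.70 higher with DMSO (adjusted p = 0.00022), and the summed immediate-early genes of LPS neutrophils were 25920 and 15500 CPM with DMSO and 4855 and 3263 CPM with inhibitors. In saline neutrophils the sums were 5641 and 4826 CPM with DMSO and 4405 and 2752 CPM with inhibitors. For *Cxcl10*, *Cxcl13* and *Cxcl16* in microglia the intervals of the DMSO difference were -0.75 to 1.02, -1.13 to 0.47 and -0.56 to -0.04 on the log2 scale (edgeR adjusted p = 0.999 for each).

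**Figure D5:**
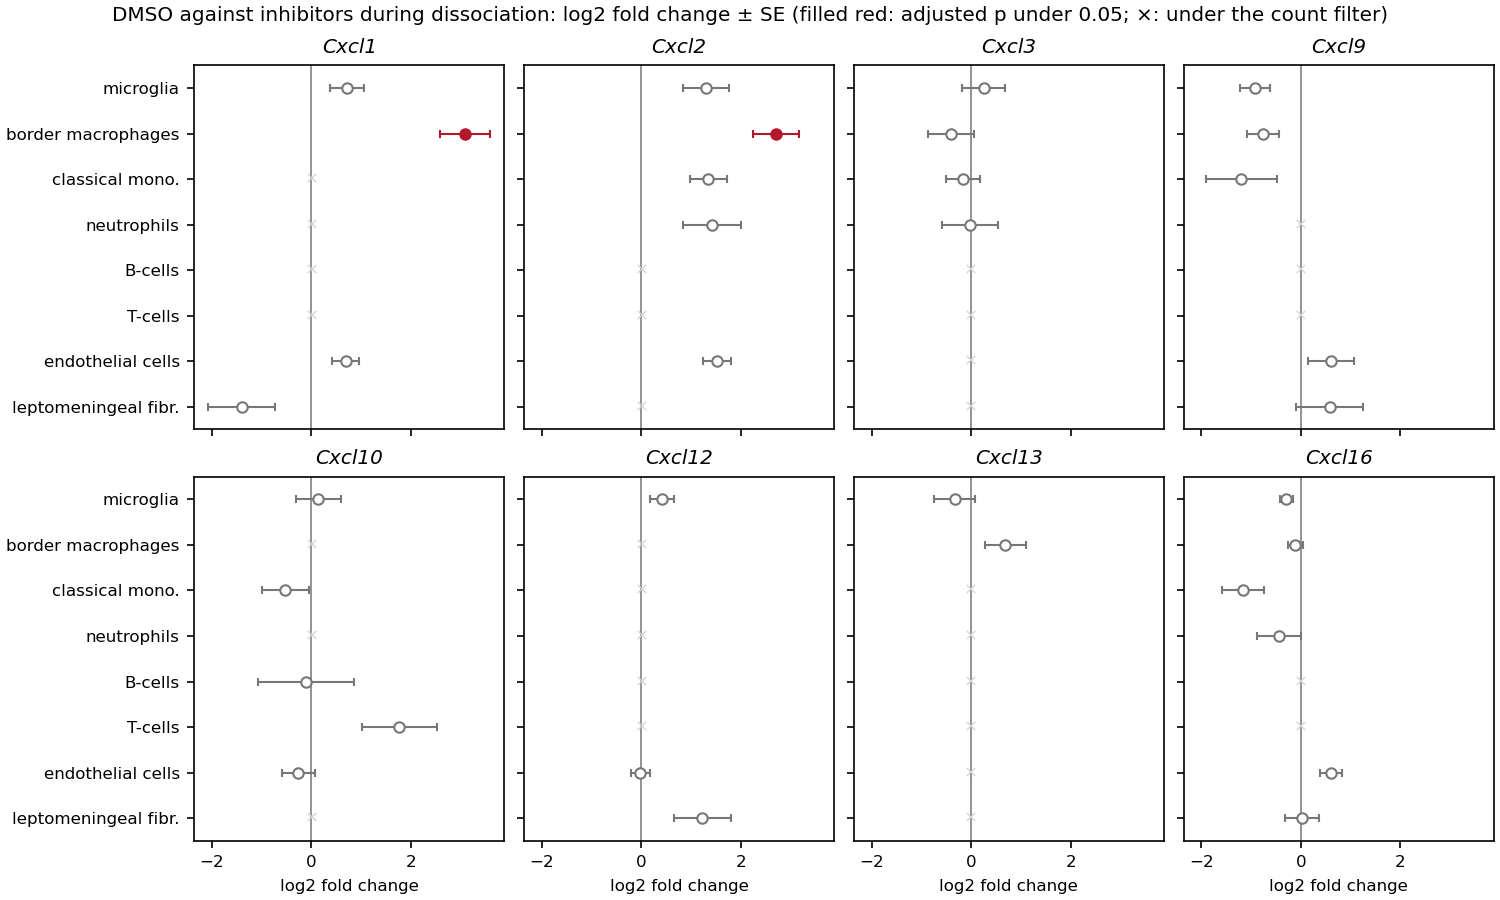
Log2 fold change of DMSO against inhibitors during dissociation with its standard error for each member (panels) in 8 cell classes (rows), from the edgeR fit. Filled red points have an adjusted p under 0.05, open points do not, and crosses at 0 mark pairs under the count filter. The 2 red points are *Cxcl1* (3.08) and *Cxcl2* (2.71) in border-associated macrophages.

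The LPS change itself was not called different between DMSO and inhibitor libraries for any of 37 pairs by edgeR or DESeq2, where 0.0225% of genes were called in microglia, 0.09% in monocytes and 0% in neutrophils. By edgeR 7 pairs had an unadjusted p under 0.05, among them *Cxcl16* (2.82) and *Cxcl9* (4.46) in monocytes and *Cxcl2* in neutrophils (3.11), with adjusted p = 0.226, 0.246 and 0.479. With capture day as a block neutrophil *Cxcl2* (3.27, adjusted p = 7.42e-08) and monocyte *Cxcl16* (2.68, adjusted p = 0.041) were called. Without replicate 2 of LPS DMSO neutrophil *Cxcl2* was called (3.66, adjusted p = 0.0147), and without replicate 2 of saline inhibitors monocyte *Cxcl9* (5.32, adjusted p = 0.00042) and *Cxcl16* (3.43, adjusted p = 0.0028) were. In the neutrophil levels given above, both LPS DMSO libraries stood over both LPS inhibitor libraries, and the saline libraries of the 2 kinds overlapped.

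The receptors and other ligands of the family were read from the same fits. Of 21 pairs of a CXC receptor and a class tested, 5 (23.8%) were called higher and 11 (52.4%) lower with LPS, where 18.8% and 20.3% of all genes were on average over the same classes. *Ackr1*, a receptor that binds many inflammatory chemokines without signalling and presents them on venules, went in endothelial cells from 5.05 to 11.2 CPM in saline to 1401, 2457, 1255 and 1187 CPM (log2 fold change 7.67, SE 0.31, edgeR adjusted p = 2.35e-11). *Ackr3*, the scavenger of the *Cxcl12* product, rose in endothelial cells (1.16, edgeR adjusted p = 9.24e-05) and leptomeningeal fibroblasts (2.90, adjusted p = 0.000271) and fell by 1.95 in mural cells (adjusted p = 8.99e-06). *Cxcr4*, its signalling receptor, fell by 2.55 in classical monocytes, from 186.7 to 312.3 CPM to 36 to 42.2 CPM (edgeR adjusted p = 7.71e-07), by 1.69 in microglia, by 0.73 in border-associated macrophages and by 0.72 in neutrophils.

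*Cxcr2* was found in neutrophils at 339.5 to 795.9 CPM in saline and 702.2 to 886.4 CPM with LPS, ranges that overlap (log2 fold change 0.80, SE 0.27, edgeR adjusted p = 0.0376). *Cxcr3* fell in T-cells by 1.36 (edgeR adjusted p = 0.00397) and *Cxcr6* by 2.09 (adjusted p = 5.08e-07), and *Cxcr3* also fell by 4.34 in border-associated macrophages. Of 10 pairs of another CXC ligand 3 were called higher and 3 lower, 30% each and close to the 22.6% and 24.4% of all genes in the same classes, with *Cxcl14* higher in microglia (2.48) and macrophages (2.06), and *Pf4*, the platelet factor that these macrophages also express, lower in both (by 1.81 and 1.08) and higher in monocytes (2.63). Of 23 pairs of a protease that releases or trims chemokines none was called higher and 8 (34.8%) lower by edgeR, where 16.8% and 17.6% of all genes were on average over the same classes (33.8% lower in microglia alone). Those lower included *Adam10*, which sheds the *Cxcl16* product, in microglia (fell by 0.55), endothelial cells (0.63) and T-cells (1.27), and *Dpp4*, which clips the products of *Cxcl10* and *Cxcl12*, in endothelial cells (fell by 3.98). The list of proteases also holds *Mmp9*, a marker of the neutrophil gate, so its neutrophil level is not independent of that gate.

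The genes with the most similar pattern were sought over 40 combinations of 10 classes and 4 groups, among 21301 genes, by Pearson correlation of the mean log2(CPM + 1), which is a description over combinations that share libraries. They were *Gm45774* (r = 0.853), *Csf3* (0.853) and *Adamts4* (0.848) for *Cxcl1*, *Lcn2*, *Zc3h12a* and *Nfkbiz* (0.816 to 0.817) for *Cxcl2*, and *Dpep2*, *Fbxl5* and *Gm12589* (0.819 to 0.830) for *Cxcl3*. For the CXCR3 ligands they were *Slc10a6*, *G730003C15Rik* and *Kcnab3* (0.745 to 0.799) with *Cxcl9* and *Gbp2*, *Map3k6* and *Csf3* (0.733 to 0.766) with *Cxcl10*. *Wnt5a*, *Glis2* and *Zic5* (0.930 to 0.933) were closest to *Cxcl12*, *Scd3*, *Gm50323* and *Gm29539* (0.859 to 0.892) to *Cxcl13*, and *Slc13a3*, *Hsd17b12* and *Cd302* (0.789 to 0.828) to *Cxcl16*.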

How the data were processed

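Single-cell PIPseq libraries of CD45+ brain cells from 8 mice were deposited as unnormalised UMI counts per gene and barcode, with every barcode kept. According to the methods, the authors matched barcodes and counted molecules with PIPseeker, aligning with STAR to the GENCODE annotation of GRCm39, and the submitters' processing notes also name Seurat 4. The counts were used as deposited, and the library totals over all barcodes ranged from 90352359 to 141182123 UMIs.

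Cells were limited to 800 to 44999 UMIs, 250 to 6499 genes and under 5% mitochondrial counts. The labels give 40000 cells loaded and 20000 to capture per sample, and 12039 to 17364 barcodes per library were within the limits. Of the cell barcodes, 125 occurred in more than 1 library. Classes were set by marker lists, so class names were rebuilt here and are not the authors' annotation. No doublet caller was run. Cells that carried markers of 2 classes, 3.3% to 6.0% of a library, were left out by the gate instead. Every class with at least 10 cells in at least 3 libraries of each kind was summed per library.

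Sums were tested with edgeR 4.0.16 (filterByExpr, TMM, quasi-likelihood test) in R 4.3.3 with the in vivo and ex vivo treatments as terms, and p-values were adjusted by Benjamini-Hochberg over all genes of the class, with a threshold of 0.05. TMM added 0.76 to log2 changes of LPS in microglia, 0.39 in border-associated macrophages, 0.26 in leptomeningeal fibroblasts and 0.23 in endothelial cells compared with CPM. Rises there are therefore larger than the ratio of the CPM printed, and falls, such as those of *Cxcl12*, are smaller. The difference of the LPS change between classes was fitted with the mouse as a block and was also tested by an exact permutation test (scipy 1.17.1) of log2(CPM + 1). Standard errors and 95% intervals of folds come from the edgeR fit, and counting intervals, which cover counting error only, from pooled UMIs. The fits were tested on simulated counts with known changes. The 2 libraries of a group came from separate mice, and the labels give replicate 1 and 2 as capture days. Same-numbered microglia libraries deviated together (correlation 0.214 to 0.750 between groups over 6093 genes). The correlation was weaker in border-associated macrophages (0.0289 to 0.394) and endothelial cells (0.0935 to 0.431). The numbers were taken to pair the samples, and a fit with that block was made as an alternative. For each level, the contribution of RNA outside cells was estimated from barcodes with 1 to 99 UMIs.

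Named genes were all members in every class, the lists of receptors, other ligands, proteases and immediate-early genes, and for each member the 3 genes of most similar pattern. *Cxcl11* was not analysed here. The members and the lists were chosen with earlier results of these data known. Promoter letters were read from RefSeq tables of GRCm38.p6.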

Additional observations from a re-analysis of the deposited data

Results flagged for a closer look

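Of 66 groups of 4 libraries that share an in vivo treatment, 11 held 1 library whose gap to its nearest neighbour relative to the range of the group was above Dixon's 95% critical value. Each group mixed DMSO and inhibitor libraries, and a group with UMIs in only 1 library is always flagged, so the count is not set against a chance rate. The groups flagged with LPS were *Cxcl1* in endothelial cells (3538 CPM) and *Cxcl2* in classical monocytes (409.5 CPM) and microglia (149.6 CPM), and each time the library was replicate 1 of LPS DMSO.

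With saline, replicate 1 of DMSO stood apart for *Cxcl2* in border-associated macrophages (160.6 CPM), *Cxcl9* in endothelial cells (19.2 CPM) and *Cxcl10* in T-cells (138 CPM). Replicate 2 of saline DMSO stood apart for *Cxcl12* in leptomeningeal fibroblasts (4812 CPM) and *Cxcl10* in B-cells (1.98 CPM). Replicate 1 of saline inhibitors did so for *Cxcl9* (223.7 CPM) and *Cxcl3* (1.85 CPM) in classical monocytes and *Cxcl13* in border-associated macrophages (2.84 CPM). These values rest on 2 UMIs for *Cxcl10* in B-cells, 1 UMI for *Cxcl3* and 4 UMIs for *Cxcl13*, with none in the other saline libraries.

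The LPS change was called different between microglia and another class by the edgeR test for 14 of 32 pairs of a member and a class. Of all genes, 20.1% were called in border-associated macrophages, 23.9% in classical monocytes, 15.6% in neutrophils and 29.6% in endothelial cells. Only 7 of the 14 pairs also had an unadjusted permutation p under 0.05. In endothelial cells the differences on the log2 scale were 4.16 for *Cxcl1*, 3.96 for *Cxcl2*, 2.66 for *Cxcl9*, 3.04 for *Cxcl10* and -1.87 for *Cxcl12*. In border-associated macrophages they were -1.68 for *Cxcl1*, -1.84 for *Cxcl2*, -1.70 for *Cxcl10*, 2.16 for *Cxcl13* and -2.08 for *Cxcl16*. In classical monocytes they were -3.19 for *Cxcl9*, -3.75 for *Cxcl10* and -2.14 for *Cxcl16*, and in neutrophils -2.27 for *Cxcl2*. For *Cxcl3*, the differences of 3.91 in monocytes and 2.33 in border-associated macrophages did not pass the edgeR test (adjusted p = 0.084 and 0.16), while the library values did not overlap (exact permutation p = 0.0286 for both), and monocyte *Cxcl3* was called without replicate 1 of LPS DMSO (4.31, adjusted p = 0.025).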

How the results depend on the processing

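The count of 28 of 34 pairs called for LPS stayed between 23 and 33 under DESeq2 (27), RLE scaling (28), library totals (27), the replicate block (31 of 37), subtraction of RNA outside cells (24 of 30), 1500 UMIs as the minimum (26 of 33), 10% mitochondrial counts (31 of 37), a stricter gate (27 of 33), no ex vivo term (23 of 28), DMSO libraries only (27 of 33), inhibitor libraries only (24 of 31) and without any 1 library (28 to 33). Without a filter on low counts it was 43 of 76. For DMSO the count of 2 of 34 became 13 of 76 without the filter, 4 of 37 with the replicate block, 0 of 28 without the in vivo term, 0 of 21 in saline and 4 of 42 in LPS libraries, and ran from 1 to 4 without single libraries: 1 without replicate 1 of LPS DMSO (neutrophil *Cxcl3*, -2.17, with both macrophage calls lost) and 4 without its replicate 2, when endothelial *Cxcl2* was called (1.85). For the difference of the LPS change between DMSO and inhibitor libraries the count of 0 of 37 became 5 of 76 without the filter and 2 of 37 with the replicate block, and was 0 to 3 without single libraries, with 3 without replicate 2 of saline inhibitors. Among pairs tested in both fits, the block changed no call other than those of *Cxcl2* and *Cxcl16* given above. The count of 14 for differences between classes was 12 with DESeq2, 13 to 16 without single libraries and 14 by unadjusted permutation p, of which 7 were also called by edgeR. The values that turned were these: in monocytes *Cxcl13* was -4.75 with DESeq2 and -2.77 by permutation (1.49 with edgeR), in endothelial cells -3.56 and -2.87 (0.47), and *Cxcl1* in macrophages was 0.38 by permutation (-1.68). Permutation used log2(CPM + 1), which compresses changes of levels under 1 CPM, where microglial *Cxcl1* and *Cxcl13* lay in saline. *Cxcl13* had 0 UMIs in saline and 14 with LPS in monocytes, and 0 and 2 in endothelial cells. The part of either in the turned values was not tested.

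Single results that lost a call were macrophage *Cxcl16* with inhibitor libraries only (0.38, adjusted p = 0.17) and neutrophil *Cxcl16* with DMSO libraries only (adjusted p = 0.06), and monocyte *Cxcl9* was called lower without replicate 2 of saline DMSO (-2.11, adjusted p = 0.045). In leptomeningeal fibroblasts (78 saline and 116 LPS cells) only *Cxcl1*, *Cxcl9*, *Cxcl12* and *Cxcl16* passed the count filter, and in mural cells (149 and 161) no member did. Capture day alternatives and library totals were chosen after seeing the data.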

Other observations

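Mature dendritic cells, present almost only with LPS, held *Cxcl2* at 1886 and 401.2 CPM with DMSO and 183.9 and 387.9 CPM with inhibitors, and *Cxcl1* at 528.4 and 185.6 CPM with DMSO and 35.4 and 81.3 CPM with inhibitors, so that for both genes replicate 1 of DMSO was highest and replicate 1 of inhibitors lowest. Their *Cxcl10* was 157.2, 12, 919.7 and 37.5 CPM in the same order, a spread that did not follow the dissociation treatment. In these cells 28.9% held *Cxcl2*, 29.6% *Cxcl3* and 29.4% *Cxcl16* at 800 UMIs per cell. Conventional dendritic cells of saline brains held *Cxcl16* at 114.8 to 178.6 CPM and *Cxcl10* at 31, 12.8, 34.5 and 327.7 CPM, with replicate 2 of inhibitors far above the others.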
